A study of Mus musculus with 8 samples.

Results

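The nuclear genes of oxidative phosphorylation were looked up in the H3K27ac peak lists of Oli-neu, a murine line of embryonic oligodendrocyte progenitors (strain C57BL/6). Members were all protein-coding genes of the GENCODE annotation on chromosomes 1 to 19 and X whose symbols begin with Nduf, Sdha, Sdhb, Sdhc, Sdhd, Uqcr, Cyc1, Atp5 or Cox4 to Cox8. The rule used names alone and found 99 of 21755 genes, with 98 symbols, since Atp5o has 2 gene identifiers. Acetylation of lysine 27 of histone H3 (H3K27ac) marks active promoters and enhancers, and it was profiled by ChIP-seq, the sequencing of immunoprecipitated chromatin, in 1 library of proliferating and 1 library of differentiating cells. Both media held T3 at 340 ng/ml and L-thyroxine at 400 ng/ml. Proliferating cells also received bFGF at 10 ng/ml and Pdgf-BB at 1 ng/ml, and the labels give 1 day without these growth factors, with the erb inhibitor PD174265 at 1 μM, for differentiating cells. The labels call the differentiating cells control and name no knockdown. Each state was sequenced once, so the differences given here have no replicate check and no p-value. The 6 ATAC-seq samples of the study were not analysed here.

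Oxidative phosphorylation is carried out in the inner mitochondrial membrane. Complexes I (NADH dehydrogenase) and II (succinate dehydrogenase) feed electrons to ubiquinone, complex III (the cytochrome bc1 complex) passes them to cytochrome c, and complex IV (cytochrome c oxidase) passes them to oxygen. Complexes I, III and IV pump protons, and complex V (ATP synthase) uses the gradient to make ATP. Most subunits are encoded in the nucleus, and the remainder come from mitochondrial DNA, which lies outside the chromosomes used. In the oligodendrocyte lineage, mitochondrial ATP is known to serve the energy demand of cells that begin to make myelin.

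The promoters of 4 subunits show what lay under a peak in both states. They were chosen by rule, with at most 1 for each complex, from the subunits whose transcription start site (TSS) was covered in both lists. Each stretch is the 150 bases directly upstream of the TSS in GRCm38, 5′ to 3′ in the direction of transcription, and was read from the RefSeq genome sequence. The stretch of Sdhb is chr4:140961053-140961202 on the plus strand, and that of Uqcrh is chr4:116075072-116075221 on the minus strand. Cox5a has chr9:57521124-57521273 on the plus strand, and Atp5g3 has chr2:73911327-73911476 on the minus strand. Capitals mark matches, on either strand, to letters searched in all promoters, with CCGCCC the reverse complement of the Sp box, CTTCCGG that of the ETS site, and TGACCTT that of the estrogen-related receptor (ERR) site.
Sdhb: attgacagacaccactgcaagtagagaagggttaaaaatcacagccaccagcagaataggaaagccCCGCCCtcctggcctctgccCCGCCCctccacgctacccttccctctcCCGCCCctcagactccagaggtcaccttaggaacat
Uqcrh: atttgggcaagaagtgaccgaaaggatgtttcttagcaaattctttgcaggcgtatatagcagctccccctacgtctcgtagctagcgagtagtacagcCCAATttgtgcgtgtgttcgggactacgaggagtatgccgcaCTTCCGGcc
Cox5a: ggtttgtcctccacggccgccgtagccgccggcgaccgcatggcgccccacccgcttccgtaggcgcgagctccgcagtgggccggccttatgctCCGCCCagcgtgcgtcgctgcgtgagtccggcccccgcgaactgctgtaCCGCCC
Atp5g3: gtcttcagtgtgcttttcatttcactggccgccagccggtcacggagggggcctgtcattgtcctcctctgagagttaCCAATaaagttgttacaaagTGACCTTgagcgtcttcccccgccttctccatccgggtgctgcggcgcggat
Sdhb held 3 Sp boxes, which begin at -84, -64 and -36 (counted in bases from the TSS, negative upstream). Uqcrh held a CCAAT box at -51 and an ETS match at -9. Cox5a held Sp boxes at -55 and -6, and Atp5g3 a CCAAT box at -72 and an ERR match at -52. A match is a description of the sequence and does not show that a factor was bound.

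H3K27ac peaks lay at the promoters of about as many oxidative phosphorylation genes as not, and more of these promoters were in the differentiating list than in the proliferating list. With a promoter region that reached 3000 bp upstream and 100 bp downstream of the TSS (the upstream region), 34 of 99 members (34.3%, 95% exact interval 25.1% to 44.6%) had a peak in the proliferating list, against 23.9% of all protein-coding genes. In the differentiating list 50 members had one (50.5%, interval 40.3% to 60.7%), against 27.9% of all genes. Both lists held a promoter peak for 30 members (30.3%, against 17.7% of all genes), and 54 were marked in either list (54.5%, against 34.1%). The differentiating list alone had 20 members (20.2%, against 10.2% of all genes) and the proliferating list alone had 4 (4.04%, against 6.18%). These exact (Clopper-Pearson) intervals cover counting error over genes only, not the variation between cultures or libraries. The 2 lists were close in size, with 28924 peaks over 22 Mb in proliferating and 27965 peaks over 23.5 Mb in differentiating cells.

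A wider downstream reach, 1000 bp each way from the TSS, gave 38 members (38.4%, against 27.1% of all genes) among proliferating peaks and 54 members among differentiating peaks (54.5%, against 31.4%). Of these, 33 were shared (33.3%, against 21.8%), 21 were in the differentiating list alone (21.2%, against 9.61%) and 5 in the proliferating list alone (5.05%, against 5.32%). Among these 3 ways of counting, the gap between the lists was widest at the start site itself. A peak covered the TSS of 22 members (22.2%, against 16.1% of all genes) in the proliferating list and of 40 in the differentiating list (40.4%, against 20.5%). Along the gene, the share of members under a peak reached its highest value 150 bp downstream of the TSS in the proliferating list (27.3%) and 100 bp downstream in the differentiating list (45.5%). Over all genes the highest shares lay 200 bp downstream, at 19.2% and 23.4%.

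**Figure D1:**
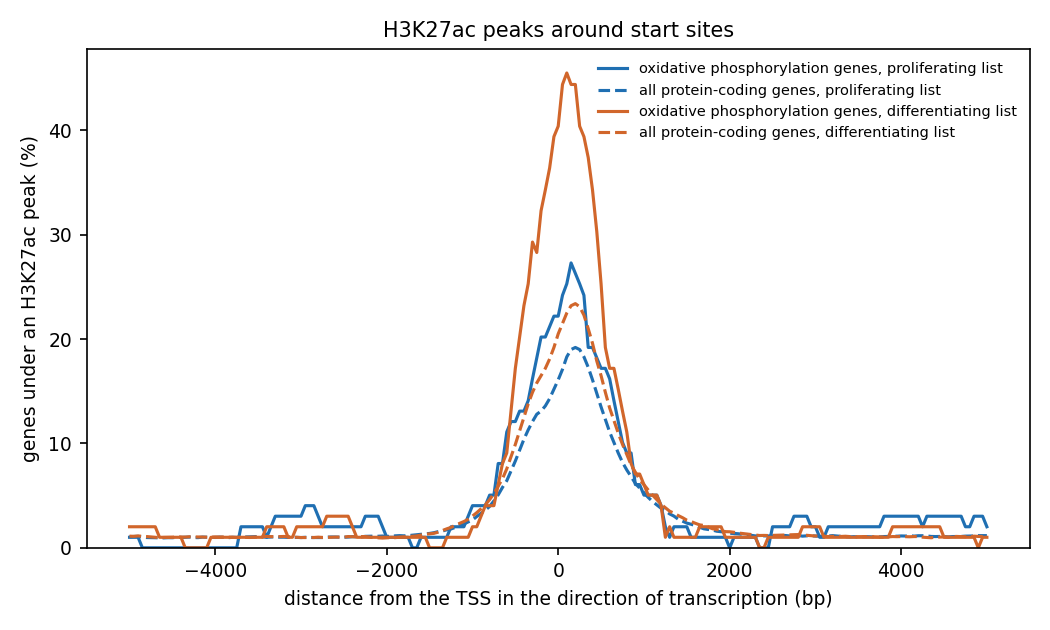
Share of genes under an H3K27ac peak (%) by distance from the TSS (bp, positive in the direction of transcription), for the 99 oxidative phosphorylation genes (solid lines) and all 21755 protein-coding genes (dashed lines) in either list. The members' line for the differentiating list reaches 45.5%, above the 27.3% of the proliferating list, while the dashed lines reach 23.4% and 19.2%.

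The complexes differed in how many of their genes were marked. Complex V had the highest share, with 13 of 18 genes in either list (72.2%, against 34.1% of all genes), 8 in the proliferating and 13 in the differentiating list. With 1000 bp on both sides it had 15 of 18 genes in either list, 12 in the proliferating and 15 in the differentiating list. Complex IV had the lowest share, with 7 of 18 genes in either list in both regions (38.9%), near the shares of all genes (34.1% and 36.7%). Its genes include forms known for muscle, lung, testis or low oxygen, taken up below. Of these, Cox4i2, Cox6a2, Cox6b2, Cox7a1, Cox7b2, Cox8b and Cox8c had no peak in either region in either list. The part of these forms in the low share was not tested. Ndufa4, now known as a subunit of complex IV, was counted in complex I by its name. Complex I had 25 of 46 (54.3%), complex II 4 of 8 (50%) and complex III 5 of 9 (55.6%). In every complex the differentiating list held more of the genes than the proliferating list, in both regions, as it did over all genes. The counts were close in complex IV with the upstream region, at 6 against 5. They were also close in complex III with 1000 bp on both sides, at 5 against 4. Among subunits 48 of 86 genes (55.8%) were marked in either list, and among assembly factors, which help build a complex and do not stay in it, 5 of 12 (41.7%), against 34.1% of all genes.

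**Figure D2:**
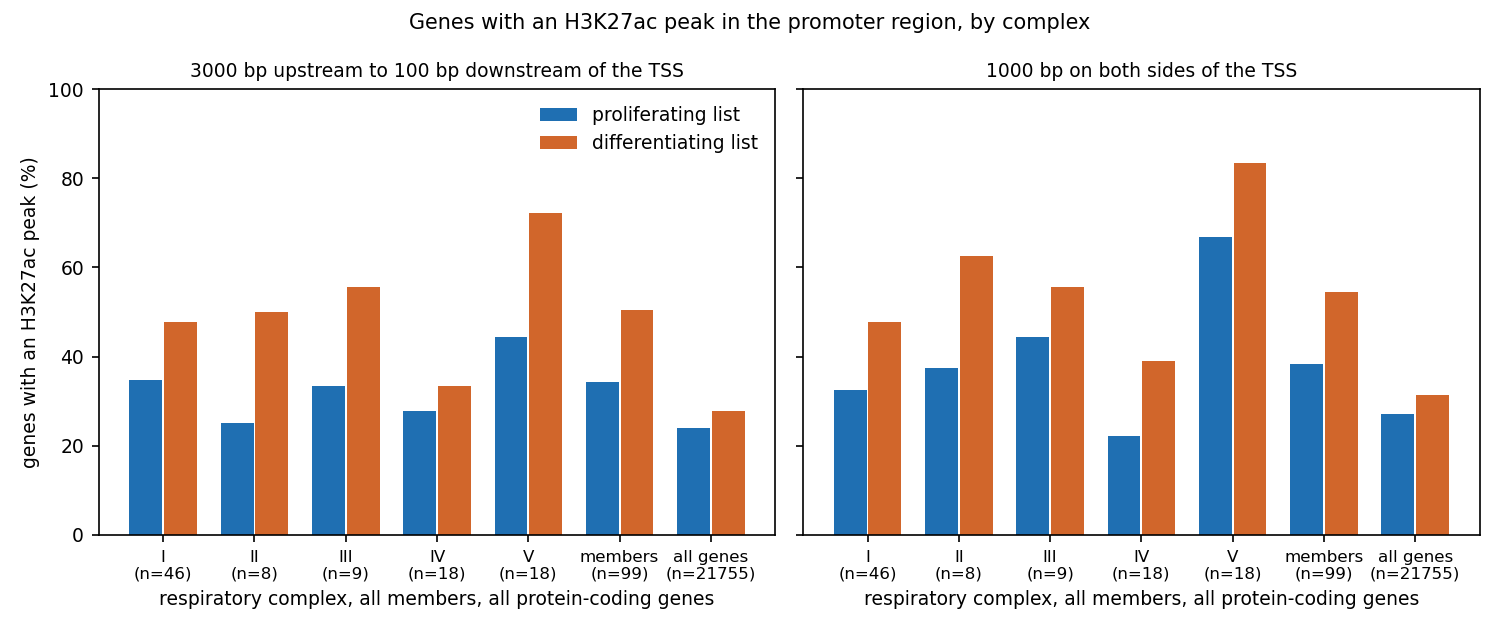
Bars give the share of genes (%) with an H3K27ac peak in the promoter region for each respiratory complex, all members and all protein-coding genes, in the proliferating list (blue) and the differentiating list (orange), for both promoter regions. Among the complexes in the differentiating list with the upstream region, complex V stands highest, at 72.2%, and complex IV lowest, at 33.3%. In the proliferating list with that region, complex II is lowest, at 25%.

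In complex I, 13 genes had a promoter peak in both lists (28.3%, against 17.7% of all genes). The differentiating list alone had 9 (19.6%, against 10.2%) and the proliferating list alone 3 (6.52%, close to the 6.18% of all genes). Ndufs1, the largest core subunit and a carrier of iron-sulfur clusters (chromosome 1, TSS at 63176833, minus strand), was covered by a proliferating peak from 63176681 to 63177086 and a differentiating peak from 63176540 to 63177782. The fold enrichment that the authors' peak caller gave was 3.63 and 3.76, and the −log10 q was 2.73 and 4.72. By −log10 q they exceeded 77.9% and 93.4% of the peaks in their own lists. This within-list percentile, with the proliferating value first, is used below because the lists were called separately. The accessory subunit Ndufb3 (chromosome 1, TSS at 58586384, plus strand) had peaks of fold enrichment 4.04 and 3.61 over its TSS, at percentiles 82.9 and 82.3. The flavoprotein subunit Ndufv2 was likewise covered at its TSS in both lists, at percentiles 62.4 and 84.3. Of the 7 nuclear core subunits, which hold the redox centres, Ndufs1 and Ndufv2 were in both lists and Ndufs8 in the differentiating list alone. Ndufs7 and Ndufv1 had a differentiating peak that began 169 and 227 bp downstream of the TSS, and so only in the region of 1000 bp on both sides. The Ndufv1 peak was among the strongest of the members, at percentile 94.7.

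Ndufa4, which carries a complex I name and is now known as a subunit of complex IV, had the highest −log10 q of all members with the upstream region in the differentiating list. In the proliferating list Cox8a (4.8), Atp5mpl, Ndufa4l2 and Ndufs6 stood above it. Its values were 3.84 in proliferating and 6.79 in differentiating cells, at percentiles 90.9 and 97.5, with a fold enrichment of 4.13 and 4.83. The proliferating peak ended 4 bp upstream of the TSS, and the differentiating peak ran across it, from -336 to 460 bp (negative values are upstream of the TSS). The start of Phf14 lies 312 bp from that of Ndufa4 on the other strand, so these peaks cannot be assigned to Ndufa4 alone. The other complex I genes in both lists were Ndufaf3, Ndufaf8, Ndufa11, Ndufa13, Ndufa4l2, Ndufb8, Ndufb9, Ndufc1 and Ndufs6. For Ndufa4l2 and Ndufs6 all of these peaks lay over 1000 bp upstream, as did the proliferating peak of Ndufc1.

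In complex II, both catalytic subunits were marked in both states, and of the membrane anchors 1 was marked, in differentiating cells alone. Sdha, the flavoprotein that oxidises succinate (chromosome 13, TSS at 74350280, minus strand), had a proliferating peak over its TSS from 74349405 to 74350354 and a differentiating one from 74350052 to 74350502, with a fold enrichment of 3.34 and 3.81. These stood at percentiles 38 and 80.8. Sdhb, the iron-sulfur subunit whose promoter is printed above (TSS at 140961203), had a proliferating peak from 140960387 to 140961881 and a differentiating one from 140960725 to 140961742. Its fold enrichment was 3.22 and 2.64, at percentiles 57.1 and 13.1, so that Sdhb stood lower in the differentiating list and Sdha higher. The anchor Sdhc (chromosome 1, TSS at 171150603, minus strand) had a peak of fold enrichment 3.22 over its TSS in differentiating cells, at percentile 60, and its nearest proliferating peak was 39159 bp away. The anchor Sdhd had none near its start, and its nearest peaks lay 48609 and 48632 bp downstream. Of the 4 assembly factors, Sdhaf4 was in the differentiating list alone with the upstream region. Sdhaf2 had a strong peak in both lists that began 285 and 286 bp downstream of the TSS, with −log10 q of 7.32 and 5.68, the first of these being the highest among all members in either region.

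In complex III, Uqcrh, the hinge protein at the cytochrome c side (TSS at 116075071), had a proliferating peak from 116074787 to 116076353 and a differentiating one from 116074910 to 116075949. Its fold enrichment was 3.73 and 4.04, at percentiles 86.7 and 93.6. Cyc1, cytochrome c1 (chromosome 15, TSS at 76343523, plus strand), had a fold enrichment of 3.24 and 4.17, at percentiles 58.8 and 94.2. The small subunit Uqcr11 was marked in both lists at percentiles 30 and 12.9, near the weak end. The Rieske iron-sulfur protein Uqcrfs1 was in the differentiating list alone, at percentile 75.6. Uqcrq had a differentiating peak over its TSS and, in proliferating cells, a peak that began 211 bp downstream, with −log10 q of 5.04. The core proteins Uqcrc1 and Uqcrc2 had no peak in either region, nor did Uqcr10 and Uqcrb.

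In complex IV, Cox5a (TSS at 57521274), a subunit on the matrix side, had a proliferating peak from 57520893 to 57522565 and a differentiating one from 57521115 to 57521836. The fold enrichment was 3.92 and 4.17, at percentiles 79.2 and 93.9. Cox7a2 (chromosome 9, TSS at 79759878, minus strand) had weak peaks of fold enrichment 3.23 and 2.97, at percentiles 26 and 18.5. Cox8a had the strongest proliferating peak of the complex, at percentile 95.2, and stood at 86.4 in the differentiating list. Cox6c was in the differentiating list alone, and the nearest peaks of Cox7c lay 757657 and 316403 bp downstream.

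Several subunits of this complex exist in a broadly used form and a form known for muscle, lung, testis or low oxygen, and peaks lay mostly at the broadly used forms. The broadly used forms taken were Cox4i1, Cox6a1, Cox6b1, Cox7a2, Cox7b, Cox8a and Ndufa4. In either list 5 of these 7 were marked in both regions (71.4%, against 34.1% of all genes with the upstream region and 36.7% with 1000 bp on both sides). The restricted forms were Cox4i2, Cox6a2, Cox6b2, Cox7a1, Cox7b2, Cox8b, Cox8c and Ndufa4l2, and 0 of these 8 had a peak within 1000 bp of the TSS in either list, against 36.7% of all genes. With the upstream region the count was 1 of 8 (12.5%, against 34.1% of all genes), from Ndufa4l2, whose peaks spanned -3303 to -2094 bp in proliferating and -3077 to -1521 bp in differentiating cells. Ndufa4l2, which replaces Ndufa4 under low oxygen, had a fold enrichment of 3.23 and 2.59 there, against 4.13 and 4.83 for Ndufa4. Cox4i1 had a differentiating peak over its TSS, at percentile 65.9, and in proliferating cells only a weak peak from -3738 to -2752 bp, at percentile 8.49. Cox6a1 was in the differentiating list alone, Cox7a2 and Cox8a were in both, and Cox6b1 and Cox7b were in neither. The pairs were listed by hand from general knowledge, and 7 against 8 genes are too few for more than a description.

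In complex V, the alpha and beta genes of the catalytic head and 2 of the 3 genes of the proton-carrying ring were marked in both states. Atp5b, the catalytic beta subunit, stood at percentiles 85.7 and 51.1, and Atp5a1, the alpha subunit, at 38.2 and 87.3. Atp5g3, which encodes the ring subunit c (TSS at 73911326), had a proliferating peak from 73910635 to 73911937 and a differentiating one from 73910898 to 73911562. Its fold enrichment was 3.75 and 4.02, at percentiles 87.6 and 92.8. Of the other genes for the same ring protein, Atp5g1 had peaks over its TSS at percentiles 53.3 and 91.3. Atp5g2 had none in either region, its nearest peaks being 1328 and 1278 bp downstream. Atp5j, coupling factor 6 (chromosome 16, TSS at 84835625, minus strand), had a fold enrichment of 3.31 and 3.69, at percentiles 81.8 and 93. Its start lies 700 bp from that of Gabpa on the other strand, and Gabpa encodes a factor known to drive respiratory chain genes. Atp5h, Atp5l and Atp5mpl completed the 8 complex V genes in both lists.

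**Figure D3:**
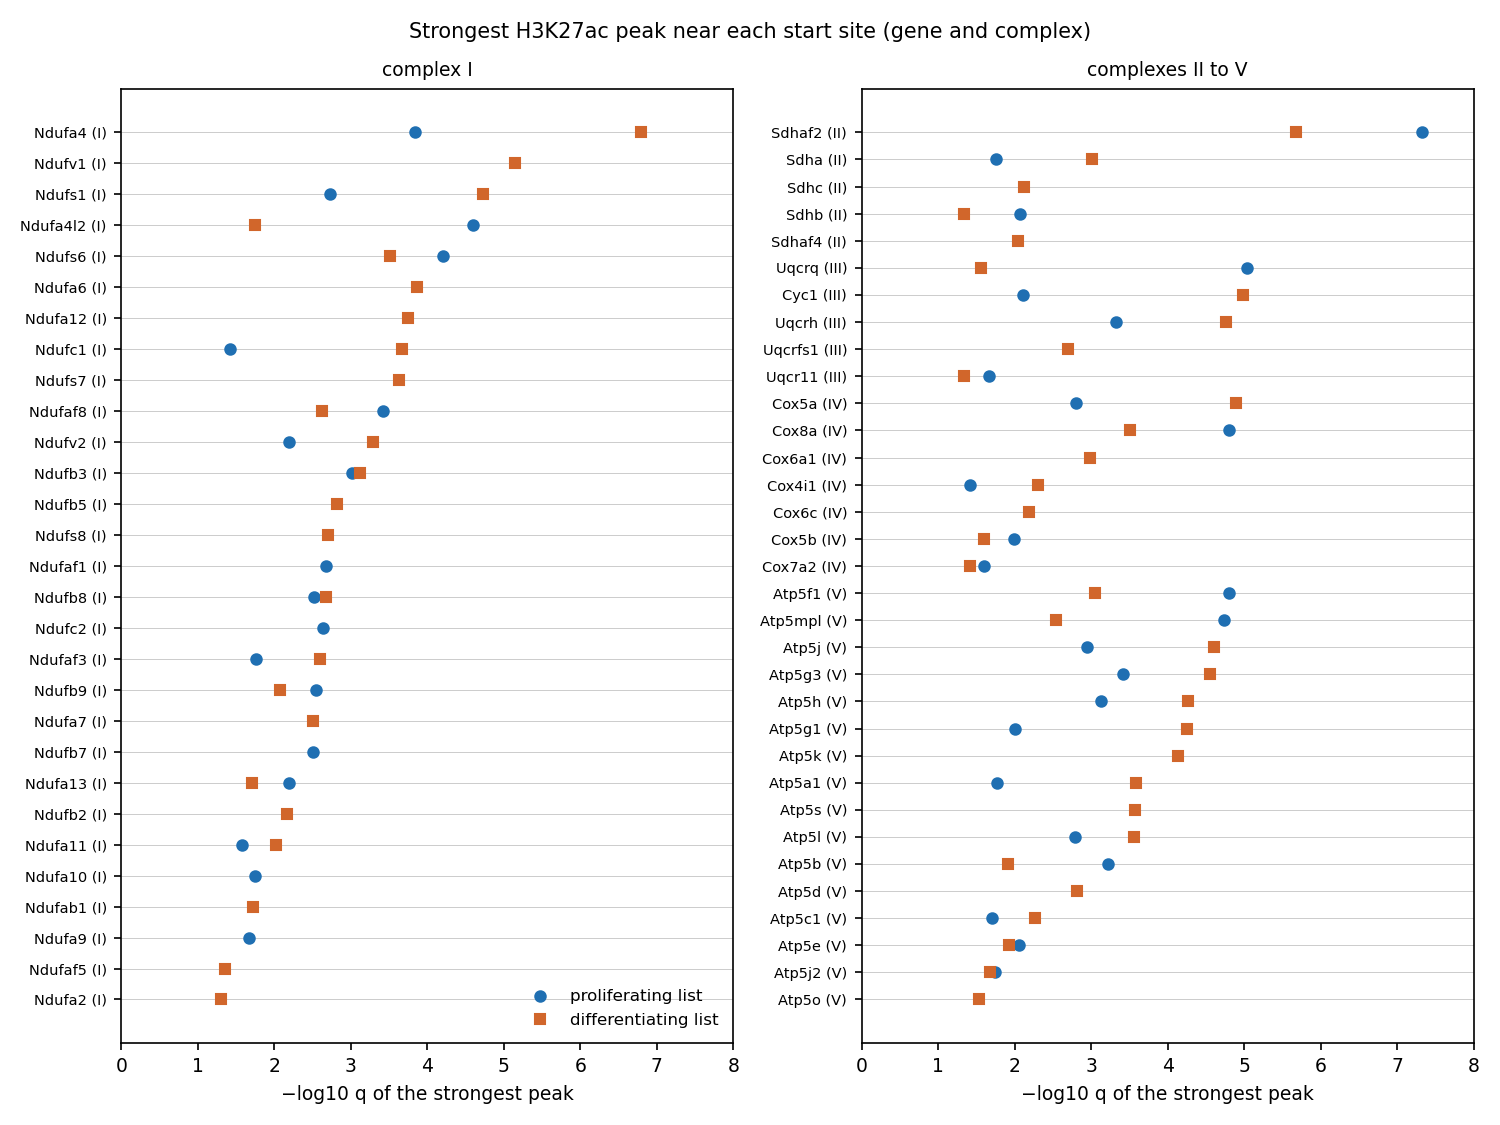
−log10 q of the strongest H3K27ac peak touching either promoter region, for each member with such a peak (gene, with its complex in brackets), in the proliferating list (circles) and the differentiating list (squares). Ndufa4 at 6.79 and Sdhaf2 at 7.32 stand highest, most others lie under 5, and rows with a single symbol are genes marked in one state.

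Members marked in one state alone had lower median percentiles than those marked in both. The 20 members of the differentiating list alone had a median percentile of 63.9 there, and the 30 shared members 83.3. In the proliferating list these medians were 62.8 for 4 members and 75.8 for 30. By this percentile the top 5 of the differentiating list alone were Ndufa6, Ndufa12, Atp5s, Atp5f1 and Cox6a1. Ndufa6, an accessory subunit of the matrix arm (chromosome 15, TSS at 82354322, minus strand), had a peak that began 5 bp downstream of the TSS, with a fold enrichment of 3.73 and percentile 89.1. Its nearest proliferating peak was 2498 bp away. Ndufa12, also in that arm (chromosome 10, TSS at 94198720), had a fold enrichment of 3.93 at percentile 88.5, and the nearest proliferating peak was 2044 bp away. Atp5s, coupling factor B (chromosome 12, TSS at 69724950), had a fold enrichment of 3.92 at percentile 87.1, with no proliferating peak within 70440 bp. Atp5f1, the peripheral stalk subunit b (chromosome 3, TSS at 105960099, minus strand), stood at percentile 81.2. It also had a proliferating peak at percentile 95.2 that began 364 bp downstream, so its state rests on the edge of the region. Cox6a1 (chromosome 5, TSS at 115348981, minus strand) had a peak from -568 to -290 bp, with a fold enrichment of 3.83 at percentile 80.2 and the shortest length in the list, 279 bp. The other members in the differentiating list alone were Ndufaf5, Ndufa2, Ndufa7, Ndufab1, Ndufb2, Ndufb5, Ndufs8, Sdhaf4, Sdhc, Uqcrfs1, Uqcrq, Cox6c, Atp5c1, Atp5j2 and Atp5o (ENSMUSG00000022956.11).

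The 4 members in the proliferating list alone each had a peak over the TSS. Ndufaf1, an assembly factor of complex I, had a fold enrichment of 3.87 at percentile 76.6, and its nearest differentiating peak was 44907 bp away. Ndufb7 had a fold enrichment of 3.81 at percentile 72.4, from a peak of the shortest length in the list, 263 bp. Ndufa9 had a fold enrichment of 3.04 at percentile 30.9, and its nearest differentiating peak was 5079 bp away. Cox5b had a fold enrichment of 3.18 at percentile 53.1, and its differentiating peak began 113 bp downstream of the TSS, past the edge of the upstream region.

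Member peaks were frequent, with medians of strength near those of all genes with a promoter peak, but a smaller share stood above percentile 90. Among members with a promoter peak the median fold enrichment was 3.61 in the proliferating list, as against 3.62 for all genes with one, and 3.53 in the differentiating list, as against 3.43. The median percentile by −log10 q was 73.3 and 75.3, against 77.6 and 76.9 for all genes with a peak. Of the members' promoter peaks, 5 of 34 (14.7%) and 9 of 50 (18%) stood above percentile 90 of their lists, against 28.4% and 26.2% for all genes. With −log10 q of at least 5 required, 0 members remained in the proliferating list (against 3.29% of all genes) and 1, Ndufa4, in the differentiating list (1.01%, against 4.25%). With 1000 bp on both sides, this gave Sdhaf2 and Uqcrq in proliferating cells (2.02%, against 3.69%), and Ndufa4, Ndufv1 and Sdhaf2 in differentiating cells (3.03%, against 4.64%). Among the 30 shared members, 18 stood at a higher percentile in the differentiating list (60%, against 51.1% of all 3859 genes with a promoter peak in both lists). For 28 of these 30 the peaks of the lists shared at least 1 base.

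**Figure D4:**
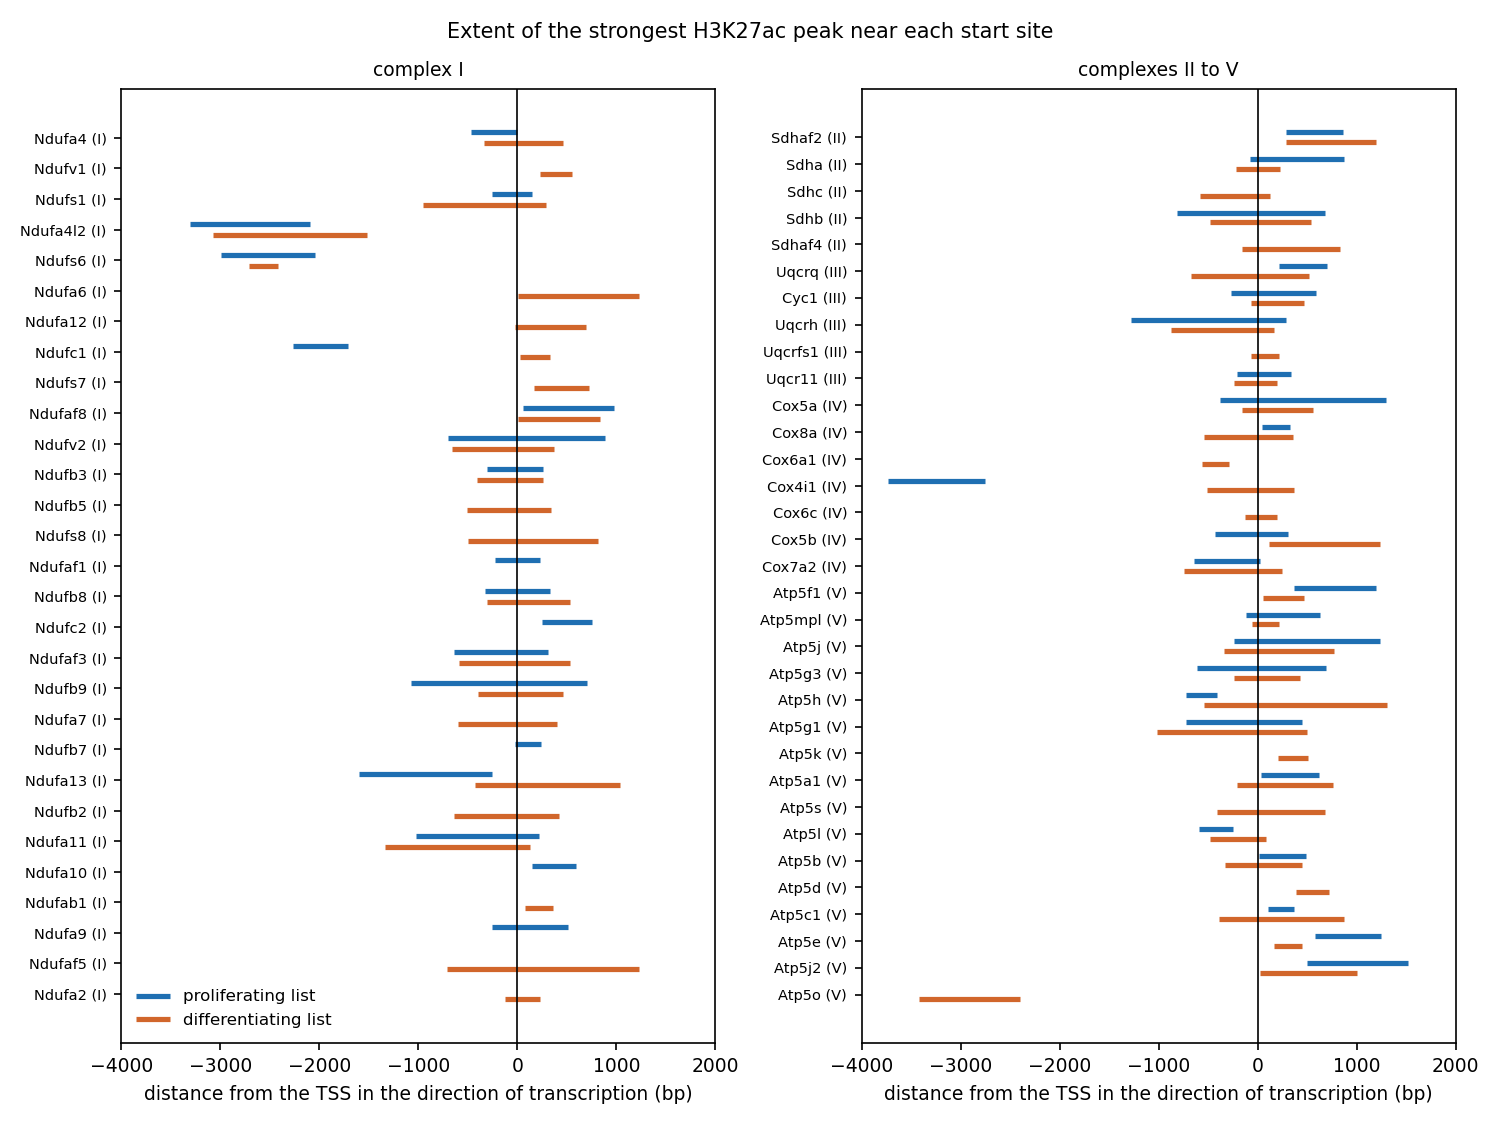
Extent of the strongest H3K27ac peak touching either promoter region, in bp from the TSS in the direction of transcription, for each member with such a peak, in the proliferating list (blue) and the differentiating list (orange), with genes in the order of their −log10 q within complexes. Of these peaks 22 of 42 in the proliferating and 40 of 57 in the differentiating list cross the TSS, and Ndufa4l2, Ndufs6, Cox4i1 and Atp5o show peaks over 2000 bp upstream.

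A peak was absent from both regions in both lists for 37 members. They included Ndufaf2, Ndufaf4, Ndufaf6, Ndufaf7, Ndufa1, Ndufa3, Ndufa5, Ndufa8, Ndufb10, Ndufb11, Ndufb4, Ndufb6, Ndufs3, Ndufs4, Ndufs5 and Ndufv3 in complex I, Sdhaf1, Sdhaf3 and Sdhd in complex II, and Uqcr10, Uqcrb, Uqcrc1 and Uqcrc2 in complex III. In complex IV they were Cox4i2, Cox6a2, Cox6b1, Cox6b2, Cox7a1, Cox7a2l, Cox7b, Cox7b2, Cox7c, Cox8b and Cox8c, and in complex V Atp5g2 and Atp5o (ENSMUSG00000116933.1). Their nearest peak lay a median of 26624 bp (proliferating list) and 27526 bp (differentiating list) from the TSS. It was within 5000 bp for 6 of the 37 in each list, and over 50000 bp away for 8 and 11. Many of these genes are subunits that every respiring cell uses, so the lack of a called peak does not show that the promoter carried no H3K27ac. The lists hold no read counts, and the depth behind a promoter without a peak is unknown.

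Part of the absences followed from where the annotation puts the start. The TSS used was the 5′ end of the GENCODE gene, which for some genes is an outlying transcript. With the start sites of curated RefSeq transcripts, an alternative chosen after seeing the data, 8 members gained a promoter peak and 0 lost theirs, for 62 in either list (62.6%, against 37.6% of all genes). They included Ndufa10, Ndufs7, Sdhaf2, Cox7a2l, Atp5d, Atp5g2 and the Atp5o identifier ENSMUSG00000116933.1. The last of these took the RefSeq start of the other Atp5o identifier and so counts the same peak again; without it 7 members gained one, for 61 symbols. For Cox7a2l the RefSeq start is 2997 bp downstream and for Atp5g2 1305 bp, and both of these then had a peak in both lists. Cox5b, Atp5c1, Atp5f1 and Atp5j2 moved from 1 list to both. The differentiating list alone then held 19 members (19.2%, against 10.7% of all genes) and the proliferating list alone 4 (4.04%, against 6.24%).

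The members shared features of their promoters that the rule did not use. The TSS of another protein-coding gene lay within 1000 bp for 36 members (36.4%, against 12.7% of all genes). All 36 had such a TSS on the opposite strand, which is again 36.4% of members, against 10.9% of all genes. Over all genes, 2382 of the 2754 with a neighbour had one on the opposite strand. Such pairs were Ndufs1 with Eef1b2, 8 bp apart, Ndufa7 with Rps28, 10 bp apart, and Sdha with Ccdc127 and Ndufs6 with Mrpl36, 29 bp apart in each case. A peak over such a shared promoter cannot be assigned to 1 gene of the pair. Of the 36, 23 were marked in either list (63.9%, against 65.8% of all genes with an opposite neighbour), and of the other 63, 31 were marked (49.2%, against 30.2%). In the differentiating list the shares with such a neighbour were 63.9% for members and 57.6% for all genes, and in the proliferating list 38.9% and 48.9%.

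Members were also rich in CpG, the dinucleotide of promoters known as CpG islands. In the window of 250 bp before and 50 bp after the TSS, the median ratio of observed to expected CpG was 0.767 for members and 0.53 for all genes, and 68 members (68.7%) had at least 0.6, against 44.7% of all genes. Among members with a promoter peak 46 of 54 (85.2%) reached this ratio, and among those without one 22 of 45 (48.9%). Within promoters of this ratio, 46 of 68 members had a peak in either list (67.6%, against 57.5% of all such genes). There the proliferating list had 44.1% of members and 41.4% of all genes, and the differentiating list 63.2% of members and 48.9% of all genes. In these CpG-rich promoters the differentiating list alone had 16 members (23.5%, against 16%) and the proliferating list alone 3 (4.41%, against 8.59%). The part of CpG content in the members' shares was not tested.

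Motifs of factors known for respiratory chain genes were found in more members than in all genes. In the same window, on both strands, GCGCATGC, the core of the nuclear respiratory factor NRF1, was found in 10 members (10.1%, against 3.4% of all promoters). The ETS letters CCGGAAG, bound by GABPA, were in 19 (19.2%, against 10.9%). The YY1 letters AAGATGG were in 12 (12.1%, against 6.24%), and the ERR letters AAGGTCA in 10 (10.1%, against 4.19%). At least 1 of these was in 41 members (41.4%, against 22.5% of all promoters), in 25 of 54 members with a promoter peak (46.3%) and in 16 of 45 without one (35.6%). Over all genes with a promoter peak this share was 30.5%. Among genes with a promoter peak, the ETS letters were in 22.2% of members and 18.1% of all genes, a narrow gap. The shares were 13% and 5.93% for NRF1, 14.8% and 7.79% for YY1, and 11.1% and 2.56% for ERR. The NRF1 and ETS letters contain CpG, and the part of CpG content in these shares was not tested. General promoter letters did not set the members apart. The Sp box GGGCGG was in 43.4% of members and of all promoters, CCAAT in 38.4% against 38.9%, and TATAAA in 12.1% against 12.7%. The CRE letters TGACGTCA were in 4 members (4.04%, against 2.45%), Ndufa10, Ndufa11, Ndufb2 and Uqcrfs1. An NRF1 match and a peak fell together in 7 members, among them Sdhb, Uqcr11, Ndufa6 and Cox6a1.

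**Figure D5:**
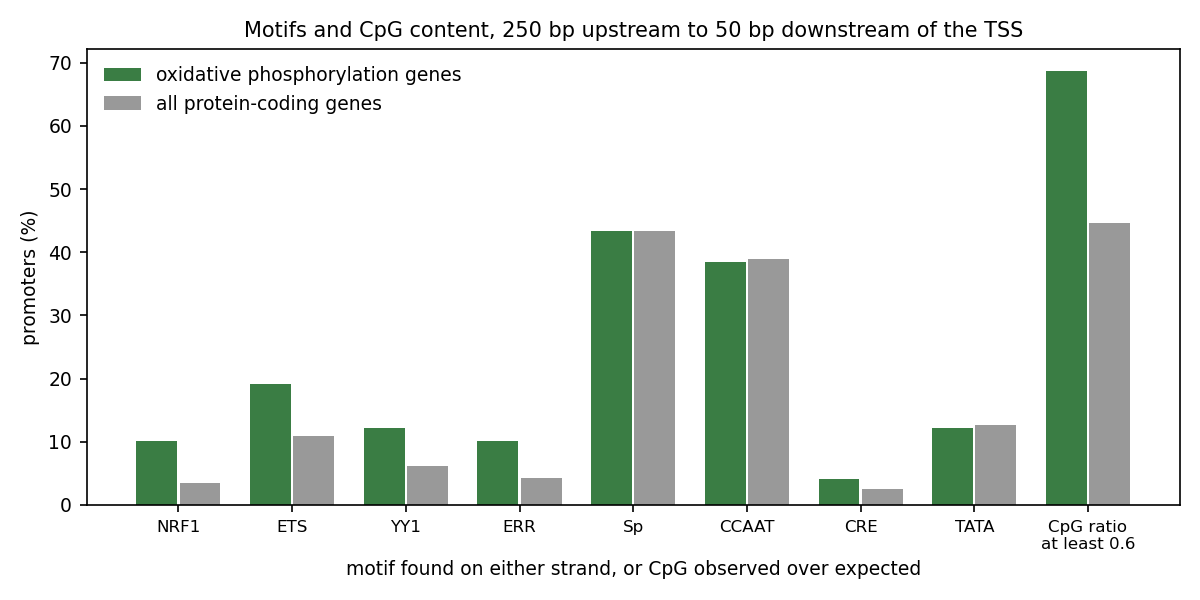
Share of promoters (%, 250 bp before and 50 bp after the TSS) with each motif on either strand, or with a CpG ratio of at least 0.6, for the oxidative phosphorylation genes (green) and all protein-coding genes (grey). NRF1 (10.1% against 3.4%), ETS, YY1 and ERR stand higher in the members, while Sp, CCAAT and TATA are level within 1 percentage point.

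Other genes of the pathway, from 3 lists written by hand, were marked in larger shares than the members. Of 40 electron carriers and assembly factors outside the rule, 32 were marked in either list (80%, against 34.1% of all genes), 27 in the proliferating and 26 in the differentiating list. Cycs, cytochrome c itself, was in the proliferating list alone with the upstream region and in both lists with 1000 bp on both sides. The tricarboxylic acid cycle enzymes, which supply the electrons, had 12 of 13 genes in either list (92.3%). The proliferating list held 7 (53.8%) and the differentiating list 10 (76.9%). Idh3a was the one without. Of 18 regulators of mitochondrial biogenesis, 12 were marked in either list (66.7%), 7 in the proliferating (38.9%) and 11 in the differentiating list (61.1%). Nrf1 stood at percentiles 95.2 and 99, Gabpa at 81.8 and 93 through the peaks it shares with Atp5j, and Yy1 at 92.1 and 63.9, while Ppargc1a, the coactivator PGC-1alpha, had no peak in either region. The mitochondrial ribosomal proteins, another nuclear set made for the mitochondrion, had 24 of 78 genes (30.8%) marked in proliferating cells and 36 (46.2%) in differentiating cells, shares close to those of the members. The cytosolic ribosomal proteins had 42 of 92 (45.7%) and 52 of 92 (56.5%). These sets were also in the differentiating list more often than in the proliferating list, except for the electron carriers and assembly factors. Those had 26 against 27 genes with the upstream region but 31 against 29 with 1000 bp on both sides. All protein-coding genes went the same way, at 27.9% against 23.9% with the upstream region and 31.4% against 27.1% with 1000 bp on both sides.

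Peaks were denser on chromosomes 1, 10 and 15, where 48.5% of all genes were marked in either list, against 31.8% elsewhere. On these 3 chromosomes 13 of 18 members were marked (72.2%), and on the others 41 of 81 (50.6%). Without them, 26 members (32.1%, against 22.1% of all genes) were marked in proliferating cells and 38 in differentiating cells (46.9%, against 25.9%). The cell line's markers were looked up in the same way. Of 12 oligodendrocyte lineage markers, 7 had a peak within 1000 bp of the TSS in either list (against 36.7% of all genes), among them Sox10, Olig1 and Padi2 in both. Astrocyte markers had 1 of 5 there, S100b, which oligodendrocytes also express, neuron markers 1 of 5, Syt1, and microglia markers 0 of 5. With the upstream region the lineage markers had 5 of 12 (41.7%, against 34.1% of all genes) and the astrocyte markers 2 of 5 (40%, with Slc1a3 added), so that these shares lay close together, while neuron and microglia markers stayed at 1 and 0 of 5.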

How the data were processed

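H3K27ac ChIP-seq peaks of 1 proliferating and 1 differentiating Oli-neu library were used. The authors aligned reads to GRCm38/mm10 with Bowtie 2.1.0, kept uniquely mapped reads, removed PCR duplicates with SAMtools, called broad peaks per library with MACS 2.0.10 and removed blacklisted regions with BEDTools. The deposited lists have no header. Rows give chromosome, start and end, and 3 numbers in a text field, read in the caller's order as a fold enrichment, a −log10 p and a −log10 q; all 3 are the authors' values. The study's text names no input library. It states a q limit of 0.05, whereas the lists reach q of 0.0995 and 0.0983. The study's culture methods also give a longer differentiation than the labels. No counts were available, so the depth behind a peak is unknown.

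Genes were those of GENCODE M21 (same build), with the gene's 5′ end as TSS. Any shared base (at least 1 bp) counted as an overlap. Percentiles are the share of a list's peaks strictly below. Complexes were assigned by symbol. Members, lists and alternatives were chosen with earlier results of these data known. Genes given in full were, per complex, the 2 subunits with a peak over the TSS in both lists and the highest mean percentile, the Sdh subunits, the listed paralogs, the top 5 of each list alone, and members without a peak. Ndufv2, Ndufv1, Ndufa4, Sdhaf2, Uqcr11, Cox8a, Atp5a1, Atp5b, Atp5g1 and others were named after their values were seen. Some genes are counted but not reported here by name. Curated RefSeq starts matched 99 members and 20672 of all genes by symbol or synonym. Calculations used Python 3.11.15, numpy 2.4.6, pandas 2.3.3, scipy 1.17.1, pysam 0.24.0 and matplotlib 3.10.9. The overlap code was tested on simulated intervals with known answers.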

Additional observations from a re-analysis of the deposited data

How the results depend on the processing

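The counts of members with a promoter peak, for both regions and for either list, both lists and each list, were recomputed under 9 or 10 alternatives, and 61 of 76 values stayed within 1.5 times the reported count. The alternatives with q of at most 0.05, equal numbers of peaks, starts of every transcript or of RefSeq transcripts, a region from 6000 bp upstream, chromosomes 1, 10 and 15 left out, or subunits only moved no count by more. With −log10 q of at least 5, the upstream region gave 0 members in the proliferating list (against 3.29% of all genes). It gave 1 in the differentiating list (1.01%, against 4.25%), 1 in either (1.01%, against 5.83%) and 0 in both (against 1.71%). With 1000 bp on both sides these counts were 2 (2.02%, against 3.69%), 3 (3.03%, against 4.64%), 4 (4.04%, against 6.41%) and 1 (1.01%, against 1.91%). With fold enrichment at or above each list's median, the upstream region gave 21 in the proliferating list (21.2%, against 17% of all genes). It gave 16 in both (16.2%, against 11%), and 1000 bp on both sides gave 25 (25.3%, against 19.5%) and 17 (17.2%, against 13.4%). With at least 0.5 of the peak inside the upstream region, 22 were in the proliferating list (22.2%, against 14% of all genes). Under this setting 31 were in the differentiating list (31.3%, against 15.7%) and 16 in both (16.2%, against 7.7%). These alternatives keep fewer peaks by construction. No paired analysis was possible because each state has 1 library and no result comes from a test, and no library could be left out.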
